A study of Homo sapiens with 9 samples.

Results

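The genes described here are 10 genes of the NRF2 antioxidant and glutathione system, NQO1, HMOX1, GCLC, GCLM, TXNRD1, TXN, SRXN1, GSTP1, GSTM4 and OSGIN1. They were taken by their symbols from the 36343 genes of the gene tables, and all 10 passed the filter on low counts that left 16335 genes to test. RNA was sequenced from SKOV-3, an epithelial ovarian cancer cell line, after 3 days in dishes coated with hydrogels of 0.5, 4 or 25 kPa, with no drug or genetic change. Each gel had 3 libraries, which are called replicates 1 to 3 on 0.5 and 4 kPa and replicates 2 to 4 on 25 kPa, so that 9 libraries entered the comparison. The question was how the stiffness of the substrate alters expression, and every fold change below is the softer gel over the stiffer gel. Nothing in the labels says that the libraries came from separate cultures, so p-values measure only the spread between libraries.

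NRF2, the product of NFE2L2, is a transcription factor that KEAP1 holds in the cytoplasm and marks for destruction. Oxidants and electrophiles modify KEAP1, and the NRF2 that then accumulates pairs with small MAF proteins on antioxidant response elements, sites that the repressor BACH1 can also occupy. The targets make and use glutathione, reduce thioredoxin, break down heme and detoxify quinones, and in tumour cells this system is known for its part in tolerance to platinum drugs.

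Total counts were 19609740 to 21033433 per library. Mitochondrial genes took 5.21 to 5.74% of the counts on 0.5 kPa, 3.99 to 4.41% on 4 kPa and 4.15 to 4.6% on 25 kPa, and the part of this share in the results was not tested. Of 10 ovarian carcinoma markers all were above 0, with summed levels of 5371 to 5689, 5030 to 5792 and 4949 to 5127 CPM (counts per 1000000 counts of the library, scaled by the TMM method) on 0.5, 4 and 25 kPa, although MUC16 and WT1 were at no more than 1.3 CPM. Leukocyte markers summed to at most 0.811 CPM with CD3E at 0, and endothelial markers to at most 2.91 CPM. Fibroblast markers summed to 54.2 to 67.2 CPM. A list of 6 MCF-7 markers summed to 308 to 336 CPM on 0.5 kPa, 245 to 274 CPM on 4 kPa and 216 to 234 CPM on 25 kPa. Most of this was CA12 (149 to 243 CPM over the libraries) and ESR1 (60.3 to 94.9 CPM), with GREB1 at 2.76 to 9.29 CPM. PGR, TFF1 and GATA3 were at no more than 1.87, 0.097 and 0.24 CPM. The part of these genes in the results was not tested. The replicate 3 libraries of 0.5 and 4 kPa stood apart by a list of 13 stress genes driven by ATF4, which summed to 1944 and 1930 CPM there, to 1072 to 1106 CPM in the other libraries of those gels and to 1289 to 1430 CPM on 25 kPa. This list shares SLC7A11 with the other NRF2 targets below, and CHAC1 with the genes below that build, recycle and cleave glutathione. CHAC1 had 33.5 CPM in replicate 3 of 0.5 kPa (7.98 and 5.98 CPM in replicates 1 and 2) and 41.0 CPM in replicate 3 of 4 kPa (8.50 and 9.18 CPM). SLC7A11 had 621 CPM in replicate 3 of 0.5 kPa (438 and 464 CPM in replicates 1 and 2) and 417 CPM in replicate 3 of 4 kPa (455 and 408 CPM). For the 10 genes, calls that changed when the replicate 3 libraries of 0.5 and 4 kPa were left out are given with and without them.

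Within the cell line the 10 genes spanned a wide range of levels. Per length, as FPKM (fragments scaled to transcript length and library size, as deposited by the authors), GSTP1 was the highest with a mean of 387 FPKM over the 9 libraries and ranked 55th of the genes tested. NQO1 followed with 334 FPKM and TXN with 253 FPKM, then TXNRD1 with 116, HMOX1 with 36.4, GCLM with 17.7, GCLC with 9.48, SRXN1 with 6.79, OSGIN1 with 4.62 and GSTM4 with 2.99 FPKM. Only GSTP1 and NQO1 overlapped among neighbours in this order, with 299.9 to 454 FPKM for GSTP1 and 282 to 378 FPKM for NQO1. By gene FPKM the order of the other genes was therefore the same in every library, apart from that pair. The place of SRXN1 is uncertain, because its level differed between the gene and transcript tables. Its only listed transcript had means of 46.2, 50.9 and 50.8 FPKM on 0.5, 4 and 25 kPa. The most abundant transcripts of GCLM and GCLC were lower on every gel, with highest means of 22.5 FPKM (25 kPa) and 18.8 FPKM (0.5 kPa).

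Between gels the level of each of these genes changed by less than 2-fold. Their median absolute log2 fold change was 0.24 for 0.5 against 25 kPa, beside 0.15 over all genes tested. It was 0.15 for 0.5 against 4 kPa, beside 0.12, and 0.098 for 4 against 25 kPa, beside 0.13. For 0.5 against 25 kPa, 1 of the 10 genes passed an adjusted p of 0.05, namely GCLC, which was higher on 0.5 kPa (edgeR's quasi-likelihood test, Benjamini-Hochberg adjustment over the 16335 genes). Of all genes tested 6.69% passed, 3.06% in the higher and 3.62% in the lower direction. For 0.5 against 4 kPa and for 4 against 25 kPa 0 of the 10 genes passed, beside 2.05% and 0.9% of all genes, and DESeq2 also called 0 in each. At an unadjusted p under 0.05 the counts were 6, 2 and 2 of 10 in the 3 comparisons, beside 22.9%, 13.7% and 14.8% of all genes. No member had a 2-fold change in any comparison, while a 2-fold change at an unadjusted p under 0.05 was found for 2.28%, 1.07% and 1.03% of all genes. The 95% interval of the fold change lay within 1.5-fold in either direction for 9 of 10 genes in each comparison, with HMOX1 the exception. Expression in bulk RNA does not tell fewer cells that express a gene from less RNA per cell.

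**Figure D1:**
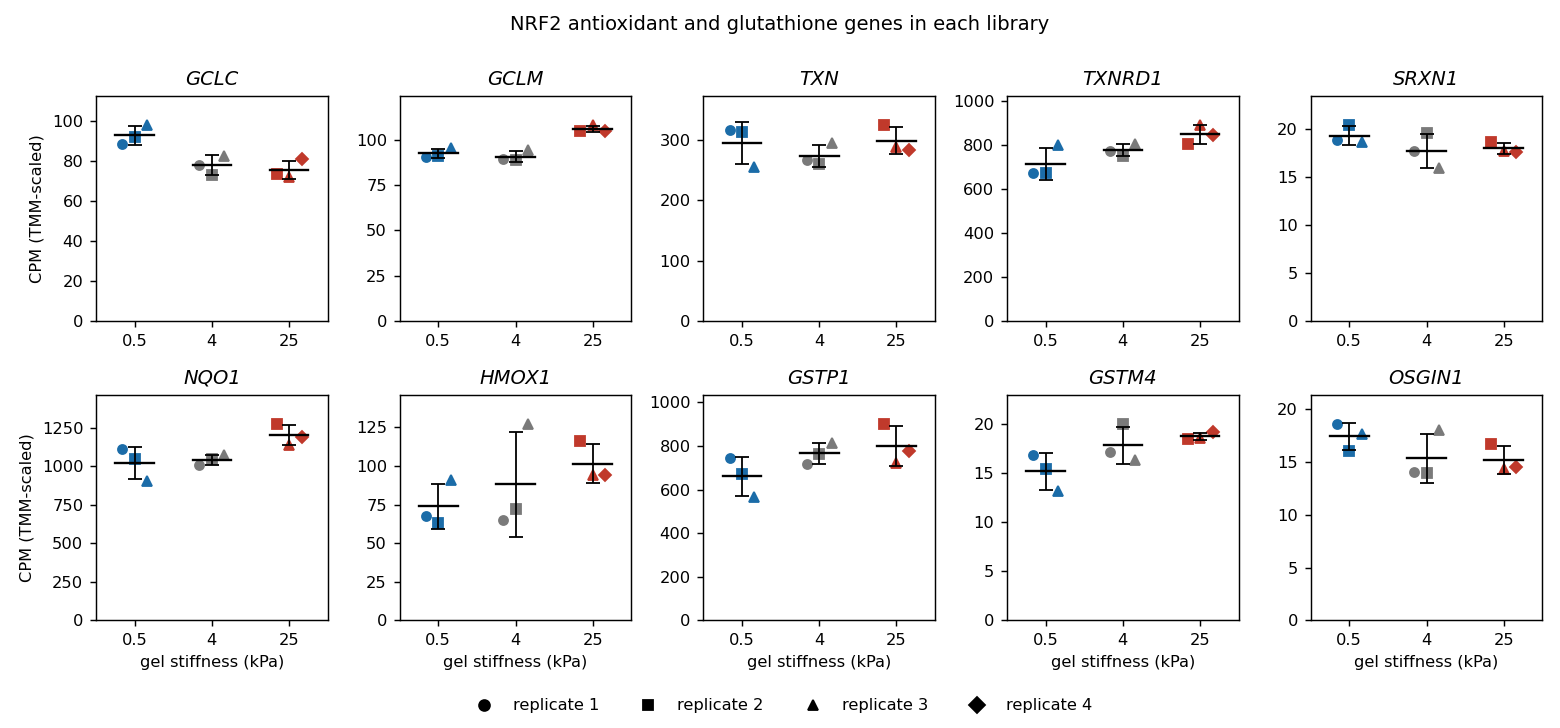
Level of each of the 10 genes in every library, in TMM-scaled CPM (vertical axes, from 0), by gel stiffness in kPa. Points are libraries with a symbol for each replicate number, and bars are the mean ± SD (n = 3). GCLC sits higher on 0.5 kPa (88.4 to 97.9 CPM) than on 4 and 25 kPa, GCLM sits higher on 25 kPa (104.9 to 108 CPM) than on the softer gels, and HMOX1 is spread widest within 4 kPa (64.7 to 127 CPM).

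Glutamate-cysteine ligase makes the rate-limiting step of glutathione synthesis, and its catalytic subunit GCLC and its modifier subunit GCLM are described first. GCLC was higher on 0.5 kPa than on 25 kPa, and GCLM had its highest values on 25 kPa. GCLC (ENSG00000001084, chr6:53497341-53616970 of hg38, minus strand) had 88.4, 91.8 and 97.9 CPM on 0.5 kPa, 78.0, 73.2 and 82.7 CPM on 4 kPa and 73.5, 72.2 and 80.7 CPM on 25 kPa. The 0.5 kPa libraries were above all the others, and those of 4 and 25 kPa overlapped. A long noncoding RNA gene on the same strand, AL033397.1, covers 46.5% of the span of GCLC and had a mean of 106.1 counts beside 1662 for GCLC. The means were 92.7 ± 4.8, 77.9 ± 4.7 and 75.5 ± 4.6 CPM on 0.5, 4 and 25 kPa (SD, n = 3 each). GCLC rose 1.23-fold on 0.5 against 25 kPa (log2 fold change 0.30, SE 0.08, 95% interval 0.13 to 0.46, adjusted p = 0.035). Against 4 kPa its log2 fold change was 0.25 (interval 0.09 to 0.41, adjusted p = 0.13), and between 4 and 25 kPa it was 0.05 (interval -0.12 to 0.21, adjusted p = 0.84). The call rested on every library it compared, since the adjusted p was 0.056, 0.10 and 0.088 without 0.5 kPa replicate 1, 2 and 3, and 0.11, 0.11 and 0.07 without 25 kPa replicate 2, 3 and 4. The log2 fold change stayed between 0.26 and 0.36 over all 21 alternatives, of which 13 called the gene.

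GCLM (ENSG00000023909, chr1:93885205-93909456, minus strand) had 90.6, 91.2 and 95.6 CPM on 0.5 kPa, 89.2, 88.6 and 94.2 CPM on 4 kPa and 104.9, 108 and 104.9 CPM on 25 kPa. All libraries of both softer gels were below those of 25 kPa, and the softer gels overlapped. The means were 92.4 ± 2.7, 90.6 ± 3.1 and 106 ± 1.9 CPM (SD, n = 3 each). Its log2 fold change was -0.20 for 0.5 against 25 kPa (SE 0.06, interval -0.34 to -0.06, adjusted p = 0.086) and -0.23 for 4 against 25 kPa (SE 0.06, interval -0.36 to -0.09, adjusted p = 0.11), neither of which passed. For 0.5 against 4 kPa it was 0.03 (interval -0.11 to 0.17, adjusted p = 0.90). Without the replicate 3 libraries of 0.5 and 4 kPa GCLM passed in both comparisons with 25 kPa, with adjusted p = 0.031 on 0.5 kPa and 0.026 on 4 kPa. It was the steadiest of the 10 genes, with an SD within gels of 0.040 on the log2 scale, and 1.35% of the tested genes had less.

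The promoters of the ligase genes are shown because the levels of their subunits were ordered differently over the gels. Each window holds 250 bases before and 50 bases after the start that RefSeq gives (GRCh38.p14), 5′ to 3′ on the gene's strand, and capitals mark the core of the antioxidant response element, TGACNNNGC on either strand. This core is present in 13.3% of all 35116 windows, and a match is a description of the letters, not evidence of binding. Sequence beyond the windows was not searched, so a window without a match does not show that the gene lacks the element. Whether the matches bear on the levels was not tested. Windows were found for 9 of the 10 genes, 10 windows in all, and those of GCLM, TXNRD1 and GSTP1 hold the core. The GCLC window lies at chr6:53545052-53545351 and has no match, and the GCLM window lies at chr1:93909381-93909680 with a match at 34 to 26 bases before the start.
GCLC: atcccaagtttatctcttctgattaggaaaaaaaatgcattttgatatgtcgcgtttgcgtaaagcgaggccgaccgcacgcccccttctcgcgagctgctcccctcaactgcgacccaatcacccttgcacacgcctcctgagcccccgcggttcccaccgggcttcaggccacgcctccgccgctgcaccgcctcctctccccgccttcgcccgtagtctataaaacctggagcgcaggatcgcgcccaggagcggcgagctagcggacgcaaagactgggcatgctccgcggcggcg
GCLM: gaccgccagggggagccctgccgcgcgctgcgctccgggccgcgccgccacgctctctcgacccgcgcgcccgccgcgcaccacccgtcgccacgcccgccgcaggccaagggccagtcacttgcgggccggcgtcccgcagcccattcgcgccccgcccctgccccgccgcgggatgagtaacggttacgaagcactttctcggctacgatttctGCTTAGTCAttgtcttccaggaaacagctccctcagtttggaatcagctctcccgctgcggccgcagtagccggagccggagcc

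The ratio of the subunits within a library does not depend on how libraries are scaled, and in the gene table it separated the 3 gels without overlap. FPKM of GCLC per FPKM of GCLM was 0.612, 0.631 and 0.642 on 0.5 kPa, 0.548, 0.518 and 0.55 on 4 kPa and 0.439, 0.418 and 0.482 on 25 kPa. The means were 0.628 ± 0.015, 0.539 ± 0.018 and 0.447 ± 0.033 (SD, n = 3 each), so that the ratio on 0.5 kPa was 1.41 times that on 25 kPa. The differences were 0.49 on the log2 scale for 0.5 against 25 kPa, 0.22 for 0.5 against 4 kPa and 0.27 for 4 against 25 kPa. Each of the 3 comparisons had p = 0.1 in a two-sided exact permutation test, also after Benjamini-Hochberg adjustment over the 3, which is the smallest p that 3 against 3 libraries allow. This ratio was chosen after the values of the genes were seen. From transcript counts summed per gene, which are not scaled to length, it was 0.922, 0.729 and 0.77 on 0.5 kPa, 0.595, 0.779 and 0.811 on 4 kPa and 0.649, 0.516 and 0.535 on 25 kPa. There the 4 kPa libraries overlapped both other gels, and the libraries of 0.5 and 25 kPa did not overlap each other.

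**Figure D2:**
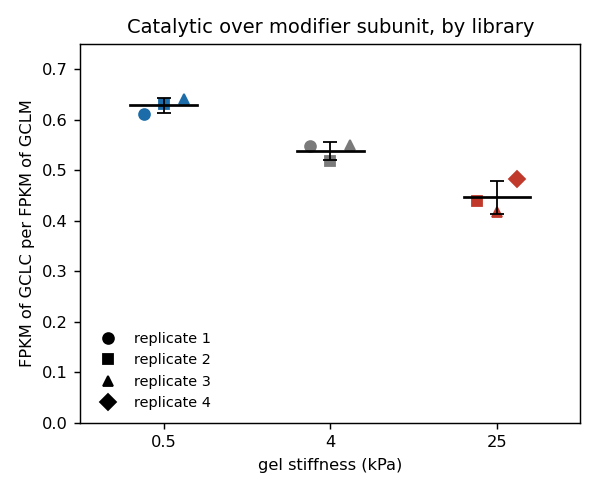
FPKM of GCLC divided by FPKM of GCLM (vertical axis, from 0) in each library, by gel stiffness in kPa. Points are libraries, and bars are the mean ± SD (n = 3). The ratio lies at 0.612 to 0.642 on 0.5 kPa, 0.518 to 0.55 on 4 kPa and 0.418 to 0.482 on 25 kPa, with no overlap between gels in the gene table.

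**Figure D3:**
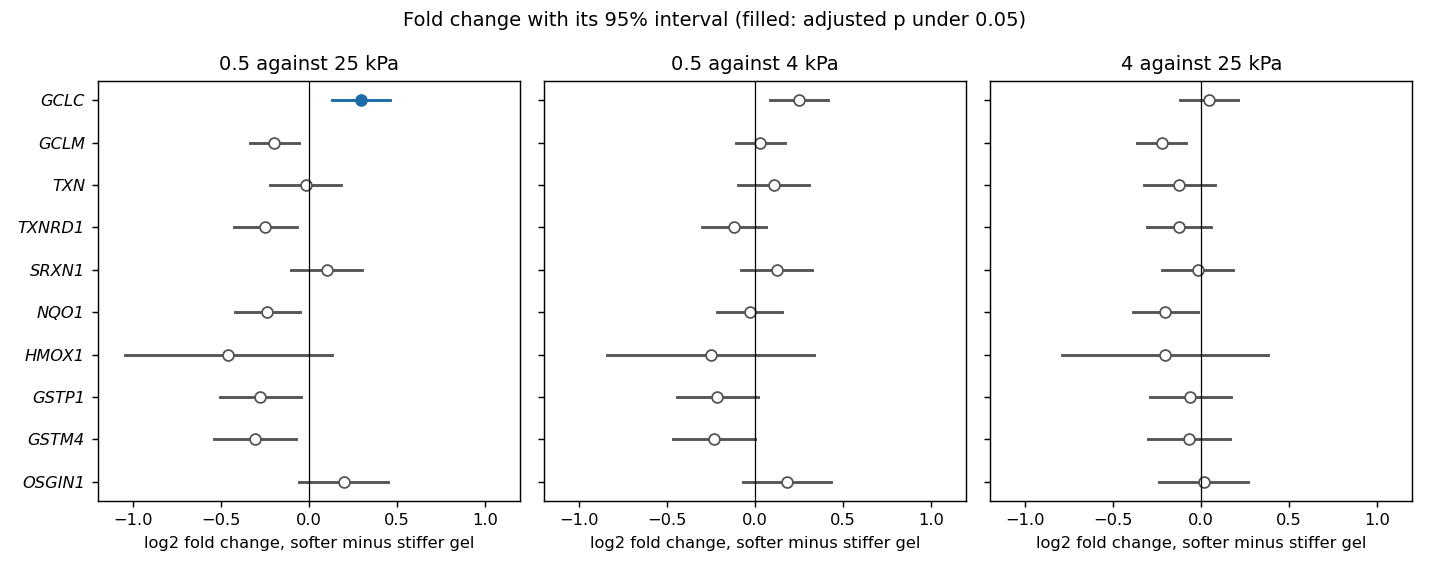
Log2 fold change of each gene, softer over stiffer gel, in the 3 comparisons, with its 95% interval from edgeR. The filled point passed an adjusted p of 0.05 and is GCLC for 0.5 against 25 kPa. HMOX1 has the widest intervals, from -1.05 to 0.13 for 0.5 against 25 kPa.

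In the thioredoxin branch, thioredoxin (TXN) reduces disulfides of other proteins, thioredoxin reductase 1 (TXNRD1) recharges it with NADPH, and sulfiredoxin (SRXN1) restores overoxidised peroxiredoxins. None of these genes passed the test. TXNRD1 (ENSG00000198431, chr12:104215779-104350305, plus strand) had 672, 673 and 800.4 CPM on 0.5 kPa, 772, 752 and 807 CPM on 4 kPa and 807, 891 and 847 CPM on 25 kPa. By CPM, each library of 0.5 or 4 kPa was below each of 25 kPa, at 4 kPa by a margin of less than 1 CPM. By FPKM both softer gels overlapped 25 kPa. The means were 715 ± 74, 777 ± 28 and 848 ± 42 CPM (SD, n = 3 each). The log2 fold change for 0.5 against 25 kPa was -0.25 (SE 0.08, interval -0.43 to -0.07, adjusted p = 0.095). It was -0.33 without 0.5 kPa replicate 3, the highest library of that gel, and passed (adjusted p = 0.026), when 4.53% of all genes passed, as it did at -0.33 without both replicate 3 libraries (adjusted p = 0.0019). The log2 fold change was -0.12 for 0.5 against 4 kPa (interval -0.30 to 0.06), and for 4 against 25 kPa it was -0.13 (interval -0.31 to 0.05). A processed pseudogene of a ribosomal protein gene, RPL18AP3, lies within TXNRD1 on the same strand and had a mean of 1383 counts beside 15791 for TXNRD1. The sources used here do not say how reads shared by such genes were counted.

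RefSeq gives 2 starts for TXNRD1, and both windows are shown because each holds the core of the antioxidant response element. Window 1 at chr12:104215529-104215828 has matches at 99 to 91 bases and at 8 to 0 bases before the start, and window 2 at chr12:104286782-104287081 has a match at 102 to 94 bases before the start. Both are on the plus strand, and capitals mark the matches.
TXNRD1 window 1: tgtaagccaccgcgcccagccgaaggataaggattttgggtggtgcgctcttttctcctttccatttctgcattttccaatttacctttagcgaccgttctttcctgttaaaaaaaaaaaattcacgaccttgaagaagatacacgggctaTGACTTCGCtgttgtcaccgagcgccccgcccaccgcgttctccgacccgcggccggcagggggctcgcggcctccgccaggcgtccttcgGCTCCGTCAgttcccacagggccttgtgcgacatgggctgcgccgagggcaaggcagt
TXNRD1 window 2: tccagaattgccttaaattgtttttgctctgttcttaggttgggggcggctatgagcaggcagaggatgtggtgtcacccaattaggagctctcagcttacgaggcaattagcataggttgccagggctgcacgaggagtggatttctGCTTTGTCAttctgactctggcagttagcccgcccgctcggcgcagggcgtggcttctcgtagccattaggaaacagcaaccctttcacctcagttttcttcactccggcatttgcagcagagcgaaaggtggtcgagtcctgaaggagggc

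The deposited transcript estimates did not settle which start was used. TXNRD1 has 20 transcripts in that table, and the share of ENST00000503506, for example, was 14.6 to 27.2% on 0.5 kPa, 2.65 to 26.5% on 4 kPa and 15.7 to 93.8% on 25 kPa. Libraries of the same gel therefore differed more than the gels.

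TXN (ENSG00000136810, chr9:110243811-110256640, minus strand) had 316, 314 and 255 CPM on 0.5 kPa, 267, 260.3 and 294 CPM on 4 kPa and 325, 289 and 283 CPM on 25 kPa. The gels overlapped throughout, and the means were 295 ± 35, 274 ± 18 and 299 ± 23 CPM (SD, n = 3 each). The log2 fold change for 0.5 against 25 kPa was -0.02, with an interval of -0.22 to 0.18, and adjusted p = 0.93. For 0.5 against 4 kPa it was 0.11 (interval -0.10 to 0.31, adjusted p = 0.68), and for 4 against 25 kPa -0.13 (interval -0.33 to 0.08, adjusted p = 0.59). In 0.5 kPa replicate 3 TXN was 0.20 below its gel's mean on the log2 scale, and without the replicate 3 libraries of both gels its log2 fold change for 0.5 against 4 kPa was 0.26 and passed (adjusted p = 0.045).

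SRXN1 (ENSG00000271303, chr20:646615-653370, minus strand) had 18.9, 20.4 and 18.7 CPM on 0.5 kPa, 17.7, 19.5 and 15.98 CPM on 4 kPa and 18.6, 17.7 and 17.6 CPM on 25 kPa. The 0.5 kPa libraries were above those of 25 kPa by a margin smaller than their own spread. SRXN1 had a log2 fold change of 0.10 for 0.5 against 25 kPa (interval -0.10 to 0.30, adjusted p = 0.56), 0.12 for 0.5 against 4 kPa (interval -0.08 to 0.32, adjusted p = 0.62) and -0.02 for 4 against 25 kPa (interval -0.22 to 0.18, adjusted p = 0.95). This level is uncertain, because AL121758.1, a protein-coding gene on the same strand with a mean of 0.9 counts, covers 99.8% of the span of SRXN1. The transcript estimates of SRXN1 summed to 25.9 times its gene count, against a median of 3.39 times over the tested genes, and 99.0% of those genes had a lower value. As CPM of the transcript table, scaled by its total alone, SRXN1 had 146.4, 146.8 and 146.5 on 0.5 kPa, 161, 155 and 167.7 on 4 kPa and 163.8, 160.2 and 158.3 on 25 kPa. In this table the 0.5 kPa libraries were the lowest, and the log2 fold change for 0.5 against 25 kPa was -0.19 (SE 0.06, adjusted p = 0.26), opposite in sign to that of the gene counts.

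NQO1, a quinone reductase, and HMOX1, the heme oxygenase that releases iron and carbon monoxide from heme, were lower in each library of 0.5 kPa than in any of 25 kPa, and neither passed the test. NQO1 (ENSG00000181019, chr16:69706996-69726951, minus strand) had 1111, 1052 and 905 CPM on 0.5 kPa, 1009, 1050.3 and 1072 CPM on 4 kPa and 1275, 1143 and 1193 CPM on 25 kPa. Both softer gels were below 25 kPa in all their libraries, and they overlapped each other. The means were 1023 ± 106, 1044 ± 32 and 1203 ± 67 CPM (SD, n = 3 each). For NQO1 the log2 fold change was -0.24 for 0.5 against 25 kPa (SE 0.09, interval -0.42 to -0.05, adjusted p = 0.12), -0.21 for 4 against 25 kPa (SE 0.09, interval -0.39 to -0.02, adjusted p = 0.28) and -0.03 for 0.5 against 4 kPa (interval -0.21 to 0.16, adjusted p = 0.92). Without both replicate 3 libraries NQO1 passed for 4 against 25 kPa (log2 fold change -0.22, adjusted p = 0.046).

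HMOX1 (ENSG00000100292, chr22:35380361-35394214, plus strand) had 67.7, 63.2 and 90.7 CPM on 0.5 kPa, 64.7, 72.3 and 127 CPM on 4 kPa and 116, 94.4 and 93.9 CPM on 25 kPa. On both softer gels replicate 3 was far above the other libraries, and on 4 kPa it was above all of 25 kPa. The means were 73.9 ± 14.7, 88.0 ± 34.0 and 101 ± 12.7 CPM (SD, n = 3 each). The SD within gels was 0.36 on the log2 scale, against a median of 0.10 for the 2088 genes at a similar level. For 0.5 against 25 kPa the log2 fold change was -0.46 (SE 0.26, interval -1.05 to 0.13, adjusted p = 0.34). It was -0.25 for 0.5 against 4 kPa (interval -0.84 to 0.34, adjusted p = 0.74) and -0.21 for 4 against 25 kPa (interval -0.79 to 0.38, adjusted p = 0.78).

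The softer-gel libraries with the highest HMOX1 were also those with the highest ATF4 stress genes. In the replicate 3 libraries of 0.5 and 4 kPa the stress genes stood 0.85 and 0.78 above their gel's mean (median of 13 genes, log2), and HMOX1 0.31 and 0.59 above. The median of all 10 genes deviated by -0.01 and 0.07 in these libraries. Without both libraries HMOX1 passed for 0.5 against 25 kPa (log2 fold change -0.62, adjusted p = 0.00026) and for 4 against 25 kPa (log2 fold change -0.56, adjusted p = 0.0028). Both held the highest HMOX1 of their gels, so leaving them out lowers the softer-gel means. On 25 kPa, replicate 2 also had the highest stress sum (1430 CPM) and HMOX1 (116 CPM) of its gel, and was kept. The softer-gel libraries that remained had stress sums of 1072 to 1106 CPM, against 1289 to 1430 CPM on 25 kPa. With both replicate 3 libraries left out 4 of the 10 genes passed for 0.5 against 25 kPa, namely GCLC, GCLM, HMOX1 and TXNRD1, beside 11.7% of all genes. GCLM, HMOX1 and NQO1 then passed for 4 against 25 kPa, beside 6.78% of all genes, and TXN for 0.5 against 4 kPa, beside 5.43%. Without 4 kPa replicate 3 alone, which enters the comparison of 0.5 with 25 kPa through the shared estimate of spread and the count filter, the same 4 genes passed there, beside 11.8% of all genes, with adjusted p = 0.044 for HMOX1, 0.045 for GCLM, 0.050 for TXNRD1 and 0.014 for GCLC. The part of the stress response of these libraries in the levels of HMOX1 was not tested.

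**Figure D4:**
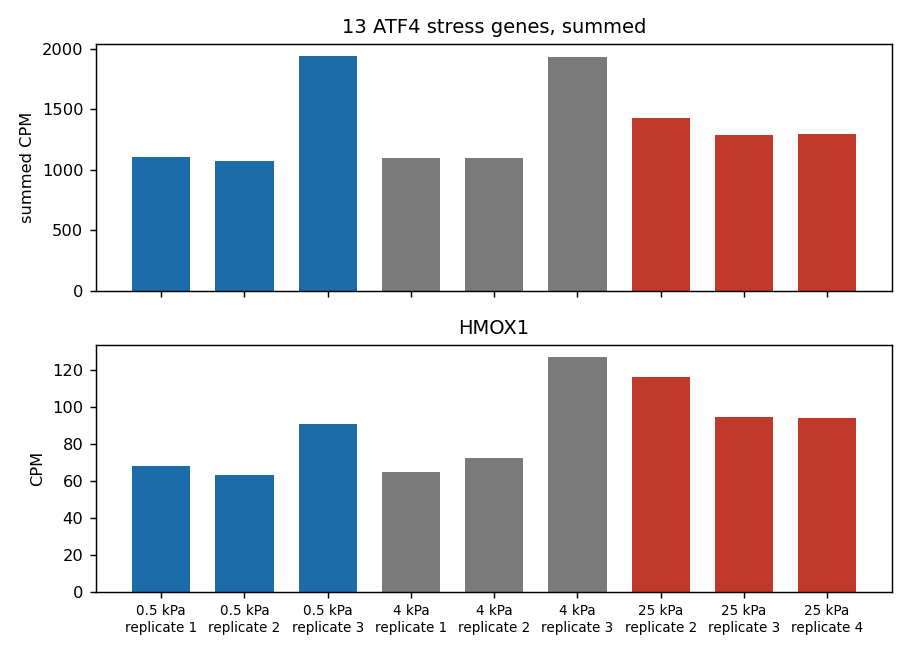
Summed level of 13 ATF4 stress genes (upper panel) and level of HMOX1 (lower panel) in each of the 9 libraries, in TMM-scaled CPM, with bars from 0. The replicate 3 libraries of 0.5 and 4 kPa have the highest stress sums, 1944 and 1930 CPM, and the highest HMOX1 of their gels, 90.7 and 127 CPM.

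The glutathione transferases conjugate glutathione to electrophiles. By FPKM, GSTP1 was among the most abundant genes of these cells and GSTM4 was the lowest of the 10 genes. GSTP1 (ENSG00000084207, chr11:67583595-67586656, plus strand) had 743, 671 and 566 CPM on 0.5 kPa, 718, 764 and 814 CPM on 4 kPa and 899.6, 723 and 775 CPM on 25 kPa. The gels overlapped, although 566 CPM in 0.5 kPa replicate 3 was the lowest value and 899.6 CPM in 25 kPa replicate 2 the highest. The means were 660 ± 89, 765 ± 48 and 799 ± 91 CPM (SD, n = 3 each). For GSTP1 the log2 fold change was -0.28 for 0.5 against 25 kPa (SE 0.11, interval -0.51 to -0.05, adjusted p = 0.14), -0.21 for 0.5 against 4 kPa (interval -0.44 to 0.02, adjusted p = 0.40) and -0.06 for 4 against 25 kPa (interval -0.29 to 0.17, adjusted p = 0.84). With no filter on low counts GSTP1 passed for 0.5 against 25 kPa (adjusted p = 0.019), as did TXNRD1 (adjusted p = 0.046), and 3 of the 10 genes were then called, beside 4.64% of 34966 genes.

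The promoter of GSTP1 is shown because its match to the antioxidant response element, TGACTCAGC at 66 to 58 bases before the start, contains the AP-1 motif TGANTCA, so that the letters are shared by both. The AP-1 motif is present in 7.71% of all windows and among the 10 genes also in that of OSGIN1. The window lies at chr11:67583562-67583861 on the plus strand, with the match in capitals.
GSTP1: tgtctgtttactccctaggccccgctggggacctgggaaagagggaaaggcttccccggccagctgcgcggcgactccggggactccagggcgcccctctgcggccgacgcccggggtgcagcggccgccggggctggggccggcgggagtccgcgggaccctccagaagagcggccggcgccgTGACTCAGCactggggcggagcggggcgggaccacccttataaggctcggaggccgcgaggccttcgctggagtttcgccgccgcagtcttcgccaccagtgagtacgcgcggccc

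GSTM4 (ENSG00000168765, chr1:109656081-109674836, plus strand) had 16.8, 15.4 and 13.2 CPM on 0.5 kPa, 17.2, 19.9 and 16.3 CPM on 4 kPa and 18.4, 18.5 and 19.2 CPM on 25 kPa. The 0.5 kPa libraries were all below those of 25 kPa, and 4 kPa overlapped both. The log2 fold change was -0.30 for 0.5 against 25 kPa (SE 0.11, interval -0.54 to -0.07, adjusted p = 0.11), -0.23 for 0.5 against 4 kPa (adjusted p = 0.36) and -0.07 for 4 against 25 kPa (adjusted p = 0.82). GSTM4 overlaps GSTM2 over 36.3% of its span and shares sequence with its family, so that its reads may be split between copies. GSTM2 had a mean of 20.8 counts beside 348 for GSTM4. OSGIN1 (ENSG00000140961, chr16:83948282-83966332, plus strand), an inhibitor of cell growth that responds to oxidative stress, had 18.6, 16.01 and 17.7 CPM on 0.5 kPa, 14.1, 13.9 and 18.0 CPM on 4 kPa and 16.7, 14.3 and 14.5 CPM on 25 kPa. The gels overlapped, and the log2 fold change was 0.20 for 0.5 against 25 kPa (interval -0.05 to 0.45, adjusted p = 0.34), 0.18 for 0.5 against 4 kPa (interval -0.07 to 0.43, adjusted p = 0.53) and 0.01 for 4 against 25 kPa (interval -0.24 to 0.27, adjusted p = 0.97).

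Over the 10 genes the median log2 fold change was -0.22 for 0.5 against 25 kPa, -0.10 for 4 against 25 kPa and close to 0 for 0.5 against 4 kPa, beside medians within 0.01 of 0 over all genes. Values below 0 were found for 7, 8 and 5 of the 10 genes in these comparisons, beside 50%, 51.5% and 48.3% of all genes. By CPM, the libraries of 0.5 and 25 kPa did not overlap for 7 of the 10 genes, GCLC and SRXN1 being higher and GCLM, GSTM4, HMOX1, NQO1 and TXNRD1 lower on 0.5 kPa. Among all tested genes this share was 30.3%, with 14.2% higher and 16.1% lower, and among the 9902 genes that averaged 10 CPM or more it was 33.4%. Between 0.5 and 4 kPa it was 1 of 10 genes, GCLC, which was higher, beside 18.4% of all genes and 9.38% in the higher direction. For 4 against 25 kPa it was 3 of 10 genes, GCLM, NQO1 and TXNRD1, which were lower, beside 20.1% of all genes and 11.1% in the lower direction. By FPKM, TXNRD1 overlapped in both comparisons with 25 kPa. It had 120.8 and 121.5 FPKM in replicate 3 of 0.5 and 4 kPa, against 116.1 FPKM in replicate 2 of 25 kPa. By transcript sums, SRXN1 was lower in every library of 0.5 kPa than in any of 25 kPa.

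The control of the pathway was described with 16 regulators of NRF2. None passed for 0.5 against 25 kPa or 4 against 25 kPa, beside 6.69% and 0.9% of all genes, and 1, MAFK, was called for 0.5 against 4 kPa, beside 2.05%. MAFK, a small MAF partner of NRF2 and BACH1, had 15.7, 14.4 and 15.5 CPM on 0.5 kPa, 21.2, 19.5 and 23.6 CPM on 4 kPa and 17.7, 16.5 and 17.4 CPM on 25 kPa. It fell by 0.50 on the log2 scale on 0.5 against 4 kPa (SE 0.09, adjusted p = 0.013), and was not called without 0.5 kPa replicate 2 (adjusted p = 0.087). NFE2L2 itself had 171, 180.3 and 220.4 CPM on 0.5 kPa, 165, 159 and 201 CPM on 4 kPa and 190.0, 194 and 195 CPM on 25 kPa, with the highest value of both softer gels in replicate 3. Its log2 fold change was -0.02 for 0.5 against 25 kPa (interval -0.24 to 0.21, adjusted p = 0.94). For KEAP1 the mean was 111 ± 6.4 on 0.5 kPa, against 121 ± 8.9 CPM for 25 kPa (SD, n = 3 each), with a log2 fold change of -0.12 (adjusted p = 0.36). For BACH1 it was 45.4 ± 9.5 on 0.5 kPa, against 40.1 ± 5.0 CPM for 25 kPa (SD, n = 3 each), with a log2 fold change of 0.18 (adjusted p = 0.44).

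Among 32 other targets of NRF2, 2 rose and 5 fell on 0.5 against 25 kPa, with a median log2 fold change of -0.08 over the list, beside 3.06% of all tested genes that rose and 3.62% that fell. ABCC3, an efflux transporter of glutathione and glucuronide conjugates, had 156, 158 and 169 CPM on 0.5 kPa, 141, 142 and 144 CPM on 4 kPa and 112, 117 and 108 CPM on 25 kPa. It rose by 0.52 on the log2 scale on 0.5 against 25 kPa (SE 0.07, adjusted p = 0.00046) and by 0.34 on 4 against 25 kPa (SE 0.07, adjusted p = 0.037), and its gels did not overlap. The call of 4 against 25 kPa was lost with only the 6 libraries compared (adjusted p = 0.07) and without any single library other than the replicate 3 libraries of 0.5 and 4 kPa (adjusted p from 0.062 to 0.24). CES1, a carboxylesterase, rose by 0.56 on 0.5 against 25 kPa (SE 0.10, adjusted p = 0.0038) and by 0.52 on 0.5 against 4 kPa (adjusted p = 0.012). Its second call ended on leaving out replicate 2 of 0.5 kPa or replicate 1 or 2 of 4 kPa (adjusted p = 0.074, 0.063 and 0.08 in turn). The genes that fell on 0.5 against 25 kPa included enzymes that supply NADPH, IDH1 and ME1. For IDH1 the mean was 103 ± 3.5 on 0.5 kPa, against 138 ± 4.3 CPM for 25 kPa (SD, n = 3 each, log2 fold change -0.43, SE 0.07, adjusted p = 0.0020). For ME1 it was 94.5 ± 2.5 on 0.5 kPa, against 115 ± 2.2 CPM for 25 kPa (SD, n = 3 each, log2 fold change -0.28, SE 0.06, adjusted p = 0.017). The ME1 call was lost without 0.5 kPa replicate 1 or 2 or 25 kPa replicate 3 or 4 (adjusted p = 0.053, 0.089, 0.067 and 0.095 in that order). TRIM16, a ubiquitin ligase, fell by 0.52 (SE 0.12, adjusted p = 0.02), and its call was lost without 0.5 kPa replicate 2 or 25 kPa replicate 2 or 4 (adjusted p = 0.092, 0.082 and 0.068). PRDX1, a peroxiredoxin, fell by 0.32 (adjusted p = 0.026) and is named here because its values were seen. PRDX1 was not called without 0.5 kPa replicate 2 or 3 or any 25 kPa library (adjusted p from 0.06 to 0.1). Besides ABCC3 and CES1, no gene of this list passed for 0.5 against 4 kPa or 4 against 25 kPa, beside 2.05% and 0.9% of all genes.

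Genes that build, recycle and cleave glutathione were represented by 14 tested genes of 15, of which 1 rose and 1 fell on 0.5 against 25 kPa, beside the same 3.06% and 3.62% of all genes. ANPEP, a membrane aminopeptidase, had 236, 259.8 and 221 CPM on 0.5 kPa, 154, 162 and 135 CPM on 4 kPa and 134, 139 and 134 CPM on 25 kPa. It rose by 0.82 on the log2 scale on 0.5 against 25 kPa (SE 0.08, adjusted p = 8.4e-05) and by 0.67 on 0.5 against 4 kPa (SE 0.08, adjusted p = 0.00067). CTH, which makes cysteine from cystathionine, had 6.13, 5.73 and 9.34 CPM on 0.5 kPa, 8.75, 9.04 and 13.3 CPM on 4 kPa and 14.2, 13.5 and 11.6 CPM on 25 kPa. It fell by 0.89 on 0.5 against 25 kPa (SE 0.20, adjusted p = 0.019), with its highest value on both softer gels in replicate 3. This call was lost without 0.5 kPa replicate 1 or 2 or 25 kPa replicate 2 or 3, with adjusted p = 0.071, 0.079, 0.077 and 0.065 in that order.

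None of the 10 tested glutathione peroxidases and glutaredoxins passed in any comparison, and none of the 12 tested members of a list of 18 other glutathione transferases did. Of all genes 6.69% passed for 0.5 against 25 kPa, 2.05% for 0.5 against 4 kPa and 0.9% for 4 against 25 kPa. In lists this short, no call is near those shares. Of the transferases GSTM1, GSTM5 and GSTT1 were not among the genes analysed here. Among 20 genes of the thioredoxin system, peroxiredoxins, superoxide dismutases and catalase, 1 rose and 1 fell on 0.5 against 25 kPa, beside 6.69% of all genes in either direction. SOD3, the extracellular superoxide dismutase, had 27.9, 31.3 and 32.2 CPM on 0.5 kPa, 14.5, 17.2 and 22.4 CPM on 4 kPa and 17.2, 15.8 and 14.5 CPM on 25 kPa. It rose by 0.94 on the log2 scale on 0.5 against 25 kPa (SE 0.13, adjusted p = 0.0010) and by 0.75 on 0.5 against 4 kPa (SE 0.13, adjusted p = 0.0087) The call against 4 kPa ended on leaving out replicate 2 of either gel, with adjusted p = 0.053 for 0.5 kPa and 0.067 for 4 kPa. The mitochondrial peroxiredoxin PRDX3 had means of 208 ± 11.8 on 0.5 kPa, against 248 ± 4.0 CPM for 25 kPa (SD, n = 3 each), and fell by 0.25 (SE 0.07, adjusted p = 0.042), a call that was lost without any single library other than 4 kPa replicate 3, with adjusted p from 0.064 to 0.16.

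**Figure D5:**
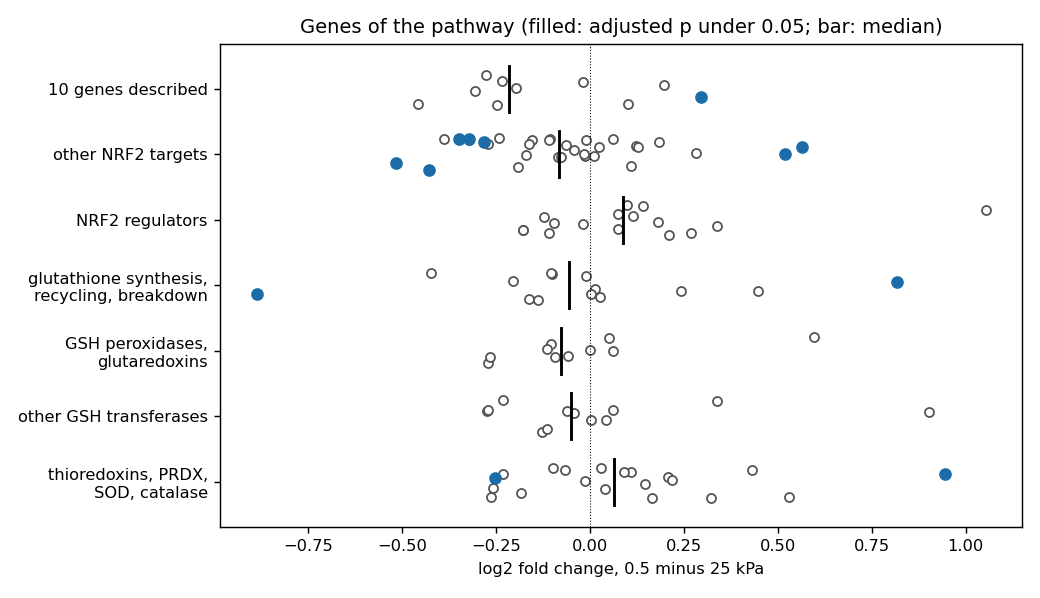
Log2 fold change of 0.5 over 25 kPa (horizontal axis) for the tested genes of each list, a point for each gene, with filled points for an adjusted p under 0.05 and a bar for the median of the list. GCLC is the filled point among the 10 genes described, 2 other NRF2 targets are filled above 0 and 5 below, and the filled points farthest from 0 are SOD3 at 0.94, CTH at -0.89 and ANPEP at 0.82.

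Genes whose levels over the 9 libraries were most like those of 3 members were also noted, among 11242 genes that averaged 5 CPM or more, as a description of libraries that share gels and scaling. The closest to GCLC were CASC4 and SLC30A7, both with Pearson r = 0.97, and the closest to GCLM were AIDA (r = 0.98) and ARMT1 (r = 0.97). TXNRD1 was most like BCAT1 and DLG1, both with r = 0.99.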

How the data were processed

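Total RNA of 9 libraries, 3 per gel, was poly(A)-selected and sequenced, and the groups were taken from the labels. The submitters' processing notes name FastQC 0.11.5, bcl2fastq, HISAT2 2.1.0 and hg38. The annotation, the read counter and whether it used strand: not given in the sources used here. Gene-level read counts (whole numbers, not normalized) and FPKM of 36343 genes were deposited by the authors. They also deposited estimated counts and FPKM per transcript. These counts are whole, add up to 3.57 times the gene counts and served as sums per gene and for the transcript shares of TXNRD1. A further 3 per-sample columns had no matching sample and were left out.

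Genes with too few counts were removed with filterByExpr of edgeR 4.0.16 (R 4.3.3), which left 16335. All 9 libraries, with TMM scaling, entered a single model with robust dispersions. Its quasi-likelihood test compared the gels, adjusted by Benjamini-Hochberg over the genes tested. Log2 CPM used a prior count of 2, and intervals are at 95%. In a simulation of 16067 genes, 200 of them changed, the test of 0.5 against 25 kPa recovered 77.6% of those changed 1.5-fold and 97% of those changed 2-fold, with 9 false calls. Alternatives were DESeq2 1.42.0, other scalings and filters, the replicate number as a block, limma 3.58.1 on log2(FPKM + 1) or log2(FPKM + 0.1), transcript sums, a fit of the 6 libraries compared alone, leaving out each library in turn, and both replicate 3 libraries of 0.5 and 4 kPa left out. Those for genes of the other lists were added after seeing the data. The ratio of GCLC to GCLM was tested by exact permutation with scipy 1.17.1.

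All 10 genes were named. NFE2L2, KEAP1 and BACH1 were named in any case, and of other lists up to 5 called genes by the smallest adjusted p. The counts of the other NRF2 targets include 1 gene that is not reported here. For the 3 genes with the smallest adjusted p, the 2 genes most like them were named. The genes and lists were chosen with earlier results of these data known. Promoter windows are from RefSeq (GRCh38.p14). Between libraries of the same gel, counts differed beyond sampling noise, with a chi-square per degree of freedom of 3.08 to 24.7.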

Additional observations from a re-analysis of the deposited data

How the results depend on the processing

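Over 21 alternatives, 630 log2 fold changes of the 10 genes were computed. Direction and call were kept in 582, a call was gained in 13 and lost in 8 (GCLC each time), and 27 changed sign, none of them called. GCLC was not called for 0.5 against 25 kPa with transcript sums (adjusted p = 0.47) or without any 1 of the 6 libraries compared (adjusted p from 0.056 to 0.11). Of the called genes of the other lists for 0.5 against 25 kPa, ABCC3, ANPEP, CES1, CTH, IDH1, ME1, PRDX1, PRDX3, SOD3 and TRIM16 were not called with transcript sums (adjusted p from 0.068 to 0.87), PRDX1, PRDX3 and TRIM16 were not called by limma under any setting (adjusted p from 0.052 to 0.089), and PRDX3 was not called with upper-quartile scaling (adjusted p = 0.069). For 0.5 against 4 kPa, MAFK, ANPEP, CES1 and SOD3 were not called with transcript sums either (adjusted p = 0.83, 0.26, 0.94 and 0.40 in that order). Nor was ABCC3 for 4 against 25 kPa (adjusted p = 0.36). The cause of these changes was not tested.

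Of the 10 genes 1, 0 and 0 were called for 0.5 against 25 kPa, 0.5 against 4 kPa and 4 against 25 kPa. Without both replicate 3 libraries the counts were 4, 1 and 3, and at an unadjusted p under 0.05 they were 6, 2 and 2. For 0.5 against 25 kPa the count was 3 with no count filter, 0 with transcript sums, 0 at an unadjusted p under 0.05 with a 2-fold change, and 0 to 4 with a library left out. Of all genes 1092, 335 and 147 were called in the same order, against 1936, 895 and 1119 without both replicate 3 libraries, 97, 34 and 16 with transcript sums, and 3733, 2239 and 2422 at an unadjusted p. With a 2-fold change and an unadjusted p, 372 genes passed for 0.5 against 25 kPa and 174 for 0.5 against 4 kPa. For 0.5 against 4 kPa and 4 against 25 kPa, DESeq2 called 524 and 408 genes, no count filter 684 and 479, and only the 6 libraries compared 191 and 41. For 4 against 25 kPa, upper-quartile scaling called 97 genes and limma 56 with log2(FPKM + 1), 52 with log2(FPKM + 0.1) and 51 at a mean FPKM of at least 1, where it called 724 for 0.5 against 25 kPa. With a library left out, 367 to 1966 genes were called for 0.5 against 25 kPa (lowest without 25 kPa replicate 4, highest without 4 kPa replicate 3). The ranges were 135 to 584 for 0.5 against 4 kPa (lowest without 0.5 kPa replicate 2, highest without 4 kPa replicate 3) and 25 to 302 for 4 against 25 kPa (lowest without 25 kPa replicate 4, highest without 4 kPa replicate 3).

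For 0.5 against 25 kPa, TXN was 0.015 with upper-quartile scaling, 0.020 with limma under each setting, 0.042 with transcript sums, 0.085 without both replicate 3 libraries and -0.073 to 0.084 with a library left out. NFE2L2 was 0.017 with upper-quartile scaling, 0.016 with limma on log2(FPKM + 1), with or without the filter, 0.017 on log2(FPKM + 0.1), 0.28 with transcript sums and -0.13 to 0.053 with a library left out. With transcript sums BACH1 was -0.22, and SRXN1 was -0.19 and, for 0.5 against 4 kPa, -0.14. For 0.5 against 4 kPa, NQO1 was 0.071 without both replicate 3 libraries, and with a library left out NQO1 ranged from -0.093 to 0.047, HMOX1 from -0.44 to 0.11 and GCLM from -0.00061 to 0.057. For 4 against 25 kPa, SRXN1 was 0.0025 with upper-quartile scaling, 0.021 or 0.024 with limma, 0.058 without both replicate 3 libraries and -0.082 to 0.047 with a library left out. OSGIN1 was -0.11 without both replicate 3 libraries and -0.12 to 0.093 with a library left out, and GSTP1 ranged from -0.12 to 0.030.

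With the replicate number as a block (replicate block), 215, 146 and 16 genes were called for 0.5 against 25 kPa, 0.5 against 4 kPa and 4 against 25 kPa, and 0 of the 10 genes in the first, where GCLC had a log2 fold change of 0.36 (adjusted p = 0.14). NFE2L2 was then 0.036 for 0.5 against 25 kPa and OSGIN1 -0.021 for 4 against 25 kPa. CTH, IDH1, ME1, PRDX1, PRDX3 and TRIM16 for 0.5 against 25 kPa, MAFK for 0.5 against 4 kPa and ABCC3 for 4 against 25 kPa were not called either (adjusted p from 0.059 to 0.46). Same-numbered libraries of 0.5 and 4 kPa correlated by -0.01, 0.14 and 0.141 in their deviations from the gel means, those of 0.5 and 25 kPa by 0.024 and 0.091, and those of 4 and 25 kPa by -0.058 and -0.231. Not every library correlated best with its own number, and the numbers were not taken as pairs.

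On simulated counts the test of 0.5 against 25 kPa recovered 77.6% of 1.5-fold changes, and its recovery of smaller changes was not measured. The intervals lay within 2-fold for 9 of the 10 genes for 0.5 against 25 kPa, with HMOX1 the exception, and for all 10 in the other comparisons.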
